A study of Mus musculus with 2 samples.

Results

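The genes described here are 5 microRNA (miRNA) genes that lie in or beside imprinted loci with a role in growth: Mir296 and Mir298 in the Gnas region, Mir483 in Igf2, Mir675 in H19 and Mir335 in Mest. They were taken by their GENCODE M21 gene names from a table of 2202 miRNA genes and not by a cutoff on a measured value. Earlier results of these data were known when they were chosen. The samples were 2 small RNA libraries of 1 group, made from adrenal gland of the strain 5xFAD/CAST, female and adult, with an age of 8 to 10 months. The name 5xFAD stands for mice that carry human transgenes of familial Alzheimer's disease under a promoter active in neurons, and CAST for a wild-derived castaneus strain. The labels call the libraries biological replicates 1 and 2 and give them separate biosamples under 1 donor identifier, and they state no transgene status for either. Whether the libraries came from separate animals or from a single one is not known, so each SD with n = 2 is a spread over libraries. No control genotype was analysed here, so the data give levels and a comparison of the libraries. Most p-values allow for counting error only. Those of edgeR's exact test allow for a spread between the libraries, which was estimated from these same libraries and may be technical.

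Imprinted genes are expressed from the chromosome of 1 parent. Igf2 encodes a fetal growth factor expressed from the paternal copy, H19 is a noncoding RNA expressed from the maternal copy of the same domain, and Mest is a paternally expressed gene. Gnas encodes the stimulatory G protein subunit through which the corticotropin receptor raises cyclic AMP in the adrenal cortex, and its locus also makes several imprinted transcripts, among them the antisense RNA Nespas. A miRNA is cut from a hairpin in a longer transcript, and bases 2 to 8 of the mature strand, the seed, pair with target messenger RNAs. The files count reads per hairpin gene, so neither the mature arm nor the parental copy of a read is known.

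The mature strands of the 5 genes are shown with their seeds in capitals, because the seeds say which of these miRNAs could share targets (RefSeq, GRCm38.p6, 5′ to 3′).
mmu-miR-335-5p: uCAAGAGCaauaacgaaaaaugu
mmu-miR-335-3p: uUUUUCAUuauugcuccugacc
mmu-miR-298-5p: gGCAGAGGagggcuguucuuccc
mmu-miR-298-3p: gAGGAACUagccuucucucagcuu
mmu-miR-296-5p: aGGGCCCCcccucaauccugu
mmu-miR-296-3p: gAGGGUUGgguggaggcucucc
mmu-miR-483-5p: aAGACGGGagaagagaagggag
mmu-miR-483-3p: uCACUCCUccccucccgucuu
mmu-miR-675-5p: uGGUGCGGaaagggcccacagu
mmu-miR-675-3p: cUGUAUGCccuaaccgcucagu

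No seed was shared between these genes, and 0 of the 10 mature strands had a seed in common with a mature strand of another gene among the 1738 in the table, which is not complete. Over that whole table, 32.0% of mature strands shared their seed with another gene. The strands from Mest were the poorest in G and C, at 30.4% for mmu-miR-335-5p and 36.4% for mmu-miR-335-3p. Those of the other 4 genes held between 50% (mmu-miR-298-3p) and 68.2% (mmu-miR-296-3p).

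The hairpins of the Gnas pair are printed with both mature strands in capitals, since of the 5 genes this pair differed most between the libraries.
Mir296: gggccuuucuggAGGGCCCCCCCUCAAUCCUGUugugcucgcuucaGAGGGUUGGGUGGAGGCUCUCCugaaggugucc
Mir298: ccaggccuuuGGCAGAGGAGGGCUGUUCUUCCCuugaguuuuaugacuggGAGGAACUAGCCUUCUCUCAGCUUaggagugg

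In the mouse build mm10, Mir296 (ENSMUSG00000065521.1) lies on the minus strand of chromosome 2 at 174267047 to 174267125. Mir298 (ENSMUSG00000065410.1) lies on the same strand at 174267504 to 174267585, which leaves 378 bases between the hairpins. Both are intergenic in GENCODE M21. The nearest annotated gene other than a miRNA is Nespas on the same strand, whose end lies 13.7 kb from Mir298, and Gnas on the opposite strand starts 16.7 kb from it. The longest exact stretch common to both hairpins is 7 bases. Whether the hairpins are related in sequence was not tested. Mir335 (ENSMUSG00000065501.1) lies on the plus strand of chromosome 6 at 30741299 to 30741396, in an intron of 7 annotated Mest transcripts. Mir483 (ENSMUSG00000070140.1) lies on the minus strand of chromosome 7 at 142654924 to 142654996, in an intron of 7 Igf2 transcripts and of the overlapping gene Gm49394. Mir675 (ENSMUSG00000076275.1), on the same strand at 142577064 to 142577147, overlaps an exon of 3 H19 transcripts and lies 77.8 kb from Mir483.

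The hairpins were 73 to 98 bases long, with a G and C content from 42.9% (Mir335) to 63.3% (Mir296). Among the 310 detected genes with a hairpin in the RefSeq table, the median was 50.5%. The predicted minimum free energy was -56.0 kcal/mol for Mir675, the lowest of the 5, and -33.8 kcal/mol for Mir483, the highest. For the others it was -44.3 kcal/mol (Mir335), -43.2 kcal/mol (Mir296) and -42.7 kcal/mol (Mir298).

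The total of reads on miRNA genes was 3635851 in replicate 1 and 6924829 in replicate 2. These are reads of the strand column, which holds the reads on the strand of the gene, and levels are given as CPM, the reads per 1000000 such reads. A read is a whole short RNA, so CPM was not divided by hairpin length, and CPM per hairpin base puts the 5 genes in the same order. To describe the tissue, the 6 miRNAs listed for endocrine and adrenal cells summed to 100545 and 115241 CPM in replicates 1 and 2. They were Mir375, which led at 46454 and 43996 CPM, Mir7-1, Mir7b, Mir202, Mir21a and Mir139. All lists here were chosen with earlier results of these data known, so their sums cannot test the tissue. Vessel miRNAs summed to 80610 and 63021 CPM, brown fat miRNAs to 1409 and 1601 CPM, leukocyte miRNAs to 1147 and 854 CPM, and red cell miRNAs to 427 and 175 CPM. Kidney miRNAs summed to 130 and 79.9 CPM, liver Mir122 stood at 78.1 and 108 CPM, muscle miRNAs summed to 7.70 and 6.07 CPM, pancreas miRNAs to 1.10 and 1.30 CPM and neuron miRNAs to 0.550 and 0.578 CPM, with 4 of 6 neuron genes and 4 of 8 muscle genes without a read. Several genes of the last lists have copies elsewhere, whose multimapping reads were assigned to no gene. Their part in the differences below was not tested. Fewer cells of a type and less miRNA per cell cannot be told apart in such tissue samples.

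Of the 5 genes, 4 were detected, meaning that each library held at least 10 of their reads, as were 356 of all 2202. Their mean levels ran from 11.1 to 1826 CPM. Together the 5 genes took 0.235% of the reads in replicate 1 (95% interval by the exact Clopper-Pearson method, 0.230 to 0.240%) and for replicate 2 the share was 0.296% (0.292 to 0.300%). Intervals here cover counting error only, because without molecular identifiers PCR copies of 1 molecule are counted as separate reads.

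Mir335, in an intron of Mest, had the most reads. It had 6870 reads in replicate 1 and 12206 in replicate 2, or 1890 and 1763 CPM, a mean of 1826 ± 89.7 CPM (SD, n = 2). Its rank among all miRNA genes was 54 and 52. The libraries gave almost the same level, and this single gene held 80.4% of the reads of the 5 genes in replicate 1 and 59.5% in replicate 2.

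Mir298 had 1037 reads in replicate 1 and 7374 in replicate 2, or 285 and 1065 CPM, a mean of 675 ± 551 CPM (SD, n = 2). Replicate 2 was high, and the gene ranked 134 in replicate 1 and 74 in replicate 2. Mir296, its neighbor, had 589 and 865 reads, or 162 and 125 CPM, a mean of 143 ± 26.2 CPM, at ranks 157 and 162. Here replicate 1 was the higher library.

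Mir483, in an intron of Igf2, had 44 and 70 reads. This was 12.1 CPM in replicate 1 (95% interval by the Clopper-Pearson method, 8.79 to 16.2 CPM) and 10.1 CPM for replicate 2 (7.88 to 12.8 CPM). The intervals overlap widely, and the mean was 11.1 ± 1.41 CPM (SD, n = 2). Mir675, which overlaps an exon of H19, had 0 reads in both libraries and in every count column. A count of 0, taken as at most 3 counts, allows up to 0.825 CPM in replicate 1 and 0.433 CPM in replicate 2. Against that limit in each library, the observed level of Mir483 was 14.7-fold higher in replicate 1 and 23.3-fold higher in replicate 2. These folds do not allow for the counting error of Mir483. The exact 95% interval of Mir675 reached 1.01 CPM in replicate 1 and 0.533 CPM in replicate 2, below the lower ends for Mir483. Thus Mir483 in Igf2 and Mir675 in H19, which share a domain, stood apart in reads, and Mir675 was not detectable at this depth. RNA of the host genes was not analysed here. The limit holds only for reads assigned to a single gene.

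**Figure D1:**
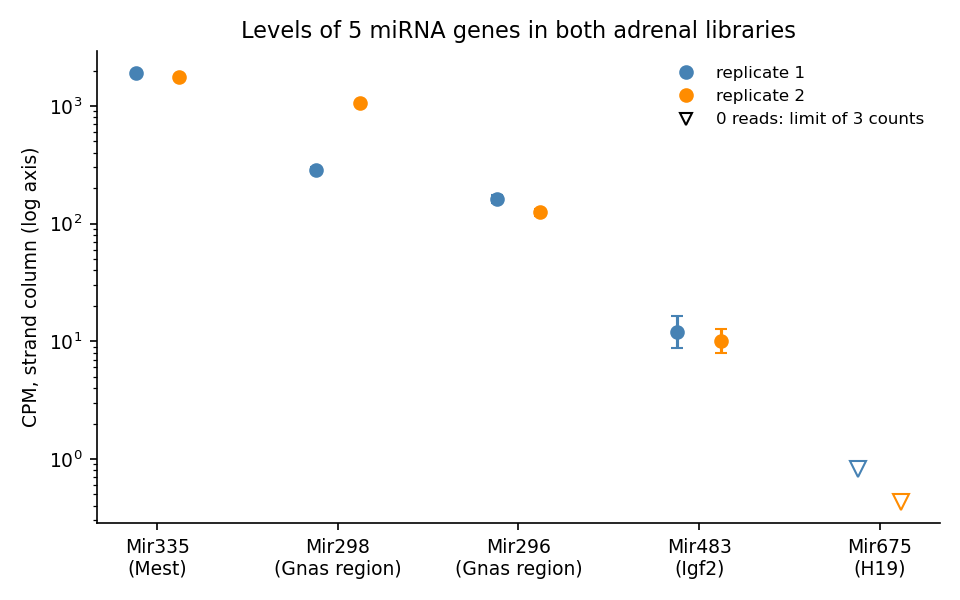
Level of each gene in CPM of the strand column on a log axis, with its locus beneath; filled points are the libraries (replicate 1 blue, replicate 2 orange), bars are exact 95% intervals of the counts, and open triangles mark the limit that 0 reads allow. Mir335 is at 1890 and 1763 CPM, Mir298 is at 285 and 1065 CPM, and Mir675 has no read.

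By reads, the order of the levels was Mir335, Mir298, Mir296, Mir483 and Mir675 in each library. Counting intervals of consecutive genes did not overlap in either library. Whether different miRNAs yield reads in equal measure was not tested, so this is an order of reads and not of molecules. Over the libraries, the means of Mir335 and Mir298 differed by more than either SD. The means of Mir298 and Mir296 differed by less than the SD of Mir298, although its lower value, 285 CPM, exceeded the higher of Mir296, 162 CPM. An exact permutation test of 2 libraries against 2 cannot give a two-sided p below 0.333, so none was used for these levels.

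By locus, the Gnas pair summed to 447 CPM in replicate 1 and 1190 CPM in replicate 2, a mean of 818 ± 525 CPM (SD, n = 2), against 1826 ± 89.7 CPM for Mest and 11.1 ± 1.41 CPM for Igf2. The Gnas pair thus made up 19.04% of the reads of the 5 genes in replicate 1 and 40.2% in replicate 2. Without Mir298 the remaining 4 genes summed to 2064 and 1898 CPM, a mean of 1981 ± 117 CPM, so the higher total of the 5 genes in replicate 2 came from Mir298.

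The counting of these genes was simple in most respects. All 5 had the same number of reads in the both-strand column as in the strand column and 0 reads on the other strand, and no other miRNA gene shared an 18-base stretch with any of the hairpins. Among 141767 annotated transcripts, 1 gene outside the locus shared such a stretch with Mir296, Mir483 and Mir675 each, and in no case did the stretch lie within a mature strand. Matches in the rest of the genome were not analysed here.

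Differences between the libraries were tested with two-sided Fisher's exact tests, with p-values adjusted by Benjamini and Hochberg's method over all 455 genes that had 10 reads or more in both libraries together. The test compares these libraries and no conditions, and it covers counting error alone. It called 52.5% of the genes, 16.9% higher and 35.6% lower in replicate 2. Of the 5 genes, 4 could be tested and 3 were called, 1 higher and 2 lower in replicate 2, so a call by this test was common among all genes and says little about these.

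Mir298 was 3.73-fold higher in replicate 2, with a log2 ratio of 1.90 and an adjusted p by Fisher's exact test whose log10 was -468. Of the 356 detected genes it had the third highest log2 ratio, after Mir26a-2 at 3.55 and Mir674 at 2.13. Another 61 detected genes had a mean level within a factor of 2 of Mir298, and their log2 ratios ran from -3.19 to 1.65 with a median of -0.17, so none exceeded it. The exact test of edgeR takes a spread between the libraries into account, with 1 dispersion for all genes. This was 31.4% as what edgeR calls the biological coefficient of variation, here a spread between libraries. It was estimated from the same 2 libraries, so the differences under test are part of it and few calls are built in. By edgeR's exact test the adjusted p of Mir298 was 0.211. That test called 1.1% of the 455 genes. Its 5 genes, named after their values were seen, were Mir26a-2, Mir185, Mir129-2, Mir153 and Mir129-1, none of them at the 4 loci, and the counts of Mir26a-2, Mir129-2 and Mir129-1 are uncertain because they have copies elsewhere. At an unadjusted p under 0.05, edgeR's exact test had 26 of the 455 genes, a share near that threshold itself. Mir298 was among them with an exact test p of 0.00464.

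Mir296 had a log2 ratio of -0.38 and was called lower in replicate 2 by Fisher's exact test (adjusted p = 4.43e-06), but its adjusted p was 1 by edgeR's exact test. Mir335 had a log2 ratio of -0.10 and was called lower by Fisher's exact test (adjusted p = 1.20e-05), but its direction turned with scaling, to 0.04 with TMM and 0.08 with DESeq2 size factors, and edgeR's exact test gave an adjusted p of 1. Mir483 had a log2 ratio of -0.27 and was not called (adjusted p = 0.490 by Fisher's exact test, 1 by edgeR's). The median log2 ratio over the 356 detected genes was -0.19, with an SD of 0.69, and 89.3% of them lay within 2-fold. TMM shifted each log2 ratio by 0.14 and DESeq2 size factors by 0.18. Relative to the median of detected genes, Mir298 stood at 2.09, Mir335 at 0.09, Mir483 at -0.07 and Mir296 at -0.18. Without that subtraction, the log2 ratios of Mir335, Mir483 and Mir296 lay between the quartiles of the detected genes, which were -0.62 and 0.17.

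**Figure D2:**
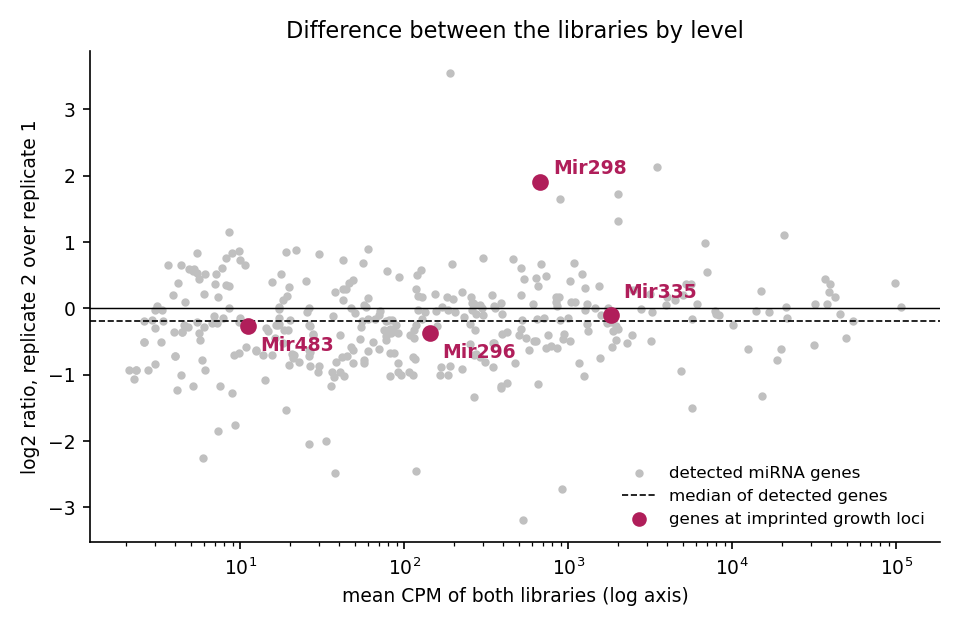
Log2 ratio of replicate 2 over replicate 1 against the mean CPM of both libraries (log axis); each grey point is a detected gene, the dashed line is their median of -0.19, and the 4 detected genes at the imprinted growth loci are in red. Mir298 at 1.90 lies above the 61 other genes within a factor of 2 of its level, whereas Mir296, Mir335 and Mir483 lie near the median.

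Ratios between the genes were then compared, because a ratio of reads within a library does not depend on how the library is scaled. There were 10 pairs, of which the 6 without Mir675 could be tested by two-sided Fisher's exact tests with adjustment over the 6. Of these, 4 were called. The tests cover counting error only, and such a test called 52.5% of single genes. How often pairs of other genes are called was not tested, so the count of 4 says little about these genes. Mir298 had 1.76 reads for each read of Mir296 in replicate 1 (exact 95% interval 1.59 to 1.95) and 8.52 in replicate 2 (7.94 to 9.16). The ratio was 4.84 times larger in replicate 2 (95% interval 4.27 to 5.49, adjusted p = 5.46e-129 by Fisher's exact test). Mir298 had more reads than its neighbor in both libraries, but by different factors.

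The same shift appeared against the genes of other loci. Mir298 had 23.6 reads per read of Mir483 in replicate 1 and 105 in replicate 2, a ratio 4.47 times larger (95% interval 2.98 to 6.65, adjusted p = 3.37e-12, Fisher's exact test). Mir335 had 6.62 reads per read of Mir298 in replicate 1 and 1.66 in replicate 2, so that the ratio in replicate 2 was 0.250 times that in replicate 1 (95% interval 0.232 to 0.268, log10 of the adjusted p -386). These ratios all contain Mir298 and are not independent of each other.

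Ratios without Mir298 were much closer between the libraries. Mir335 had 11.7 reads per read of Mir296 in replicate 1 and 14.1 in replicate 2, a ratio 1.21 times larger (95% interval 1.08 to 1.35, adjusted p = 0.00103, Fisher's exact test). Mir335 to Mir483 was 156 and 174, which differed by a factor of 1.12 (95% interval 0.747 to 1.65, adjusted p = 0.671). Mir296 to Mir483 was 13.4 and 12.4, a factor of 0.923 (95% interval 0.609 to 1.39, adjusted p = 0.766). The intervals of the last ratios include no change as well as changes of over 1.3-fold, since Mir483 had few reads.

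The Gnas pair was set beside other neighbors, defined as consecutive miRNA genes of 1 strand, at most 10 kb apart, that were both detected. There were 94 such pairs, and the absolute difference of their log2 ratios had a median of 0.49. It exceeded 1 in 16 pairs. Mir296 and Mir298 differed by 2.28, the largest of the 94. Next came Mir96 and Mir183, which differed by 2.20, and the signs of the log2 ratios were opposite in 45 pairs. Within 50 kb in place of 10 kb there were 103 pairs, and the Gnas pair was second to Mir129-2 and Mir670 at 2.44, a pair named, like Mir674 above, after its values were seen. Neighbors thus often differed between these libraries, and the Gnas pair lay at the end of that range.

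**Figure D3:**
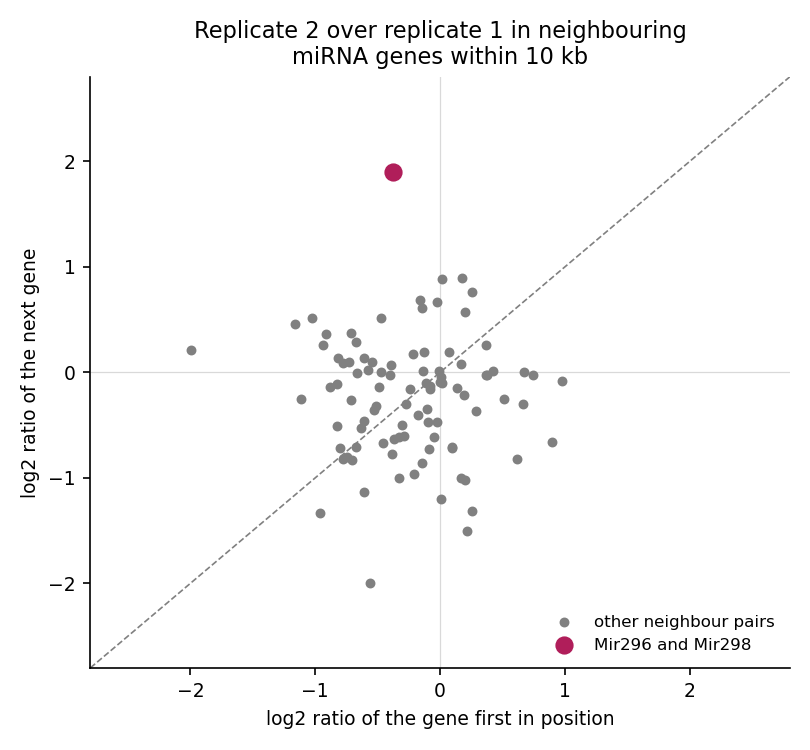
Log2 ratio of replicate 2 over replicate 1 for neighboring genes on the same strand within 10 kb, the gene first in position on the horizontal axis and the next on the vertical axis; the dashed line marks equal ratios. Mir296 and Mir298 (red, -0.38 and 1.90) lie farther from that line than any of the other pairs (grey).

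Other miRNA genes around the loci were few. Within 1 Mb of the Gnas pair, Mir6340 and Gm27591 had no read in either library. Around Mir483 and Mir675, Mir3104, Mir7063 and Mir7064 had at most 2 reads in a library. Near these loci, reads on miRNA genes thus came almost wholly from Mir296, Mir298 and Mir483.

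The megabase around Mest was different. Mir29a, of the miR-29 family known for targeting collagens, lies 321 kb downstream of Mir335 on the opposite strand and had 15047 CPM in replicate 1 and 9859 CPM in replicate 2, well above Mir335. Its partner Mir29b-1, undercounted because it has a copy elsewhere, stood at 40.4 and 44.5 CPM. On the other side, about 572 to 575 kb away, the cluster of Mir183, Mir96 and Mir182, known from sensory and neuroendocrine cells, had 474 and 549 CPM, 53.6 and 13.4 CPM, and 930 and 629 CPM. Mir96 had a log2 ratio of -1.99 (adjusted p = 9.19e-30 by Fisher's exact test, 0.211 by edgeR's exact test), and Mir182 one of -0.56, while Mir183 was at 0.21. Of the 6 genes with reads in this window, Mir335 had the smallest absolute log2 ratio with plain totals, at -0.10, followed by Mir29b-1 at 0.14. Mir29b-1 and Mir96 were named after their values were seen.

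**Figure D4:**
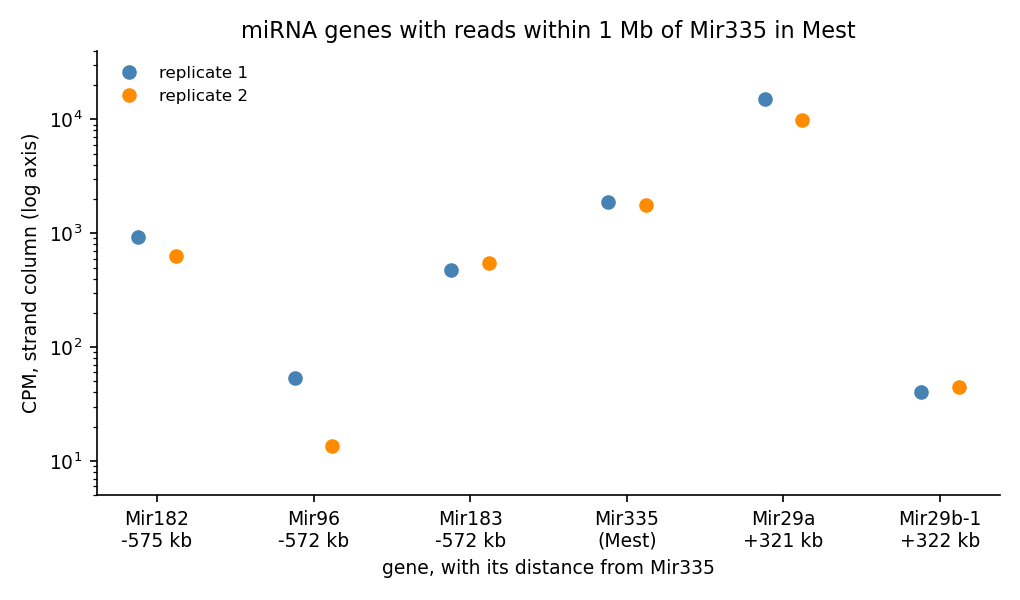
CPM of the strand column (log axis) for Mir335 and the miRNA genes with reads within 1 Mb of it, in genomic order with the distance from Mir335 beneath each name; blue points are replicate 1 and orange points replicate 2. Mir335, at 1890 and 1763 CPM, lies between Mir29a, at 15047 and 9859 CPM, and the cluster of Mir182, Mir96 and Mir183, whose points reach from 930 down to 13.4 CPM.

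For each detected gene, the genes of most similar level were found by Euclidean distance over log2 CPM in the 2 libraries. Nearest to Mir335 were Mir361 (1952 and 1767 CPM, distance 0.047) and Mir107 (1955 and 1700 CPM, distance 0.072). Nearest to Mir296 were Mir25 (172 and 143 CPM, distance 0.21) and Mir196a-2 (136 and 131 CPM, distance 0.26), and nearest to Mir483 were Mir5132 and Mir181a-2, at distances of 0.23 and 0.24. Mir298 had no close match. Its nearest gene was Mir1839, at 428 and 1348 CPM with a log2 ratio of 1.65 and a distance of 0.68, followed by Mir15b at 344 and 576 CPM and a distance of 0.93. With 2 libraries such a likeness is coarse, and the counts of Mir196a-2 and Mir181a-2, which have copies elsewhere, are uncertain.

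The list of miRNA genes of other imprinted regions is not complete. Mir1193 and Mir666, detected between listed genes on chromosome 12, are not in it. Of the listed genes, those of Dlk1-Dio3 held nearly all reads. The 45 listed genes of that region summed to 64070 CPM in replicate 1 and 59470 CPM in replicate 2, with 42 detected and Mir127 leading at 23827 and 15607 CPM. Mir335, the leading gene of the 5 described here, stood at 1890 and 1763 CPM. Mir184, the gene listed near imprinted Rasgrf1, stood at 25.9 and 24.98 CPM, above Mir483. The 12 listed Mir344 genes of the Prader-Willi side summed to 2.75 and 2.02 CPM, below Mir483, with 0 detected and 9 without a read. They are a family of like genes, and multimapping reads were assigned to no gene, so this sum may be too low. Of the 45 genes over the whole list of 58 that could be tested, 8 were called higher and 24 lower in replicate 2 by Fisher's exact test, which is 71.1% against 52.5% of all tested genes, and 0 were called by edgeR's exact test. Their median log2 ratio was -0.17, against -0.18 over all tested genes. With TMM, 13 were called higher and 19 lower. A call by Fisher's exact test comes more easily with more reads, and 43 of these 45 genes were detected. Of all 356 genes with at least 10 reads in each library, 234 were called when only such genes were tested. Whether the listed genes were called more often than their read depth explains was not tested.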

How the data were processed

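Small RNA from the adrenal gland was sequenced as 2 libraries of 1 group. The authors deposited raw counts, 1 table per library with 3 unnamed count columns. Build mm10 and annotation GENCODE M21 are given in the deposited notes. Aligner, counting program and adapter trimming were not given in the sources used here. From the values, the first column was read as both strands, the next as the strand of the gene (at least 99.99% of reads on genes that overlap no opposite-strand miRNA gene) and the last as the other strand. Entries that name no gene (unmapped 16.1% and 16.5%, multimapping 31.6% and 33.6%, no gene 5.55% and 4.99%) stayed out of totals. Since multimapping reads were not assigned, miRNAs with several copies are undercounted.

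The strand column was the main one. All 2202 identifiers matched the annotation. The totals of 3635851 and 6924829 reads make 1 read worth 0.275 and 0.144 CPM. With 1 library on each side, edgeR's quasi-likelihood test has no residual degrees of freedom, so Fisher's exact test was used, with 0.5 counts added for log2 ratios. Pair ratios have conditional exact intervals. edgeR's exact test took the common dispersion of an intercept-only model with TMM. Fisher's test was tested on simulated counts with counting error only. That simulation held no further spread between libraries, so it says nothing about calls where there is one. The genes named are the 5 genes, for each detected one the 2 nearest in level, list leaders and up to 3 neighbors within 1 Mb by level. The genes and lists were chosen with earlier results of these data known. Alternatives were the count column, TMM and DESeq2 size factors, the denominator, filters, the distance, and leaving out a library. Folds came from RNAfold 2.7.2, tests from scipy 1.17.1 in Python 3.11.15 and from edgeR 4.0.16, size factors from DESeq2 1.42.0, both in R 4.3.3.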

Additional observations from a re-analysis of the deposited data

How the results depend on the processing

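Each result was recomputed under 69 alternatives in all, of which 57 kept the direction and the call or stayed within the spread. Some of the 57 could not have come out otherwise. With 2 libraries, leaving out 1 always moves a mean by less than the SD. The pair ratios rest on the same reads in the both-strand column as in the strand column. With TMM the log2 ratio of Mir335 became 0.043 (adjusted p = 0.0911, exact binomial test) and with DESeq2 size factors 0.076 (adjusted p = 0.00114, exact binomial test), both against the direction with plain totals; this follows from the shift of all ratios. With edgeR's exact test the calls of Mir298 (log2 ratio 1.90), Mir296 (-0.38) and Mir335 (-0.10) were lost. It called 5 genes in place of 239. That test allows for a spread estimated from these same libraries, so few calls are built in. The split of calls changed from 77 higher and 162 lower to 111 and 125 with TMM and 119 and 121 with DESeq2 size factors. In the both-strand column, whose total is smaller, the mean level of Mir335 was 2084 CPM and that of Mir483 12.7 CPM. Scaled to all entries, the means were 838 CPM for Mir335, 306 CPM for Mir298, 66.0 CPM for Mir296 and 5.10 CPM for Mir483. Within 50 kb the Gnas pair took place 2 among neighbors. Without replicate 1 the level of Mir298 was 1065 CPM and without replicate 2 it was 285 CPM, so its mean rests on both; the other detected genes moved by less than 1.5 times. With a minimum of 50 reads, 3 of the 5 genes were detected, as Mir483 had 44 reads in replicate 1. No paired analysis was possible because there is 1 group.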
